A study of Mus musculus with 6 samples.

Results

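Chemokines are small secreted proteins that guide the movement of leukocytes and other cells, and they act through receptors that span the membrane and couple to G proteins. CC and CXC chemokines are named for the spacing of their first cysteines, most of their receptors are called Ccr or Cxcr genes after the class they bind, and atypical receptors (Ackr genes) bind and remove chemokines without activating G proteins. Here 50 mouse genes of this family are described, 32 ligands and 18 receptors. They are all the genes whose array probe set carried 1 gene symbol of the form Ccl, Cxcl, Ccr or Cxcr plus a number, Cx3cl1, or Ackr1 to Ackr4, among 18193 genes named in this way on the array. Symbol patterns chose them and no measured difference did, though the patterns were set with earlier results of these data known. The 50 genes had 81 probe sets between them, and each gene was read from the 1 whose mean over the 6 arrays was highest. A further 4 probe sets that name a family gene together with other genes were left out.

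Expression was measured in total RNA of 6 mouse samples, 1 Affymetrix array each. The 3 tumor samples came from granulosa cell tumors that arose in Smad1/5/8 mutant mice and were kept in RNA later before freezing, and the 3 wild-type samples were isolated granulosa cells of C57BL/6J;129S5/SvEvBrd mice. Smad1, Smad5 and Smad8 are the transcription factors of bone morphogenetic protein signalling, and granulosa cells are the somatic cells that nourish the oocyte. The wild-type donors were females 21 days old, treated with PMSG, a gonadotropin preparation, for 44 to 46 hours, and each wild-type sample pooled cells of 2 to 3 females. The tumors had no treatment; the strain, age and sex of their mice, and how their genes were mutated, are not given in the sources at hand. Tumor tissue was thus set against isolated, hormone-primed cells. Genotype, tissue makeup, priming, tissue storage and signal software cannot be told apart in any result below, nor can any difference in strain, age or pooling of animals. In such bulk samples, fewer cells of a type and less RNA per cell cannot be told apart either.

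The values are signals, the linear brightness of a probe set, with every array at a trimmed mean of 500 and between 22599 and 25049 probe sets at a signal of 100 or more. The wild-type arrays correlated at 0.964 to 0.979 with each other and the tumor arrays at 0.938 to 0.951, over genes, which are not independent replicates. RNA quality was read from the log2 ratio of 3' over 5' control signals, which for Actb was 0.808 ± 0.209 in tumors and 0.447 ± 0.193 in wild-type samples (SD, n = 3 each). For Gapdh it was -0.365 ± 0.113 in tumors and -0.391 ± 0.0653 in wild-type samples, and the part of either in the results below was not tested. The small number of arrays, 3 in each group, limits precision. Of 8 granulosa markers tested, 4 were lower and 1 was higher in tumors, and Foxl2, Inha, Fst and Nr5a2 were bright in both groups. The summed signal of the 8 markers was 75980, 72256 and 58384 in tumors and 122650, 122488 and 139960 in wild-type samples. Amh rose by 2.00 on the log2 scale, Fshr fell by 3.23, and the inhibin and activin subunit gene Inhba fell by 5.42.

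The inflammatory CC ligand genes Ccl8, Ccl6, Ccl12 and Ccl9 and the stromal ligand gene Cxcl12 were higher in the tumors, as were the receptor gene Cxcr3 and the scavenger receptor gene Ackr4. A gene was tested if its signal reached 100 on at least 3 of the 6 arrays, and 19 of the 50 genes did. With limma, and a threshold of 0.05 on the p adjusted by Benjamini and Hochberg, 7 of these 19 were higher in tumors (Ccl8, Ccl6, Ccl12, Ccl9, Cxcl12, Cxcr3 and Ackr4), 0 were lower (1 at an unadjusted p under 0.05, Ccl25) and 12 did not pass. Among all 11611 genes tested, 14.5% were called higher and 12.6% lower. The median log2 fold change was 0.57 for the 19 genes and 0.00 for all genes tested. All 3 tumors lay above all 3 wild-type samples in the same 7 genes, and below them in 1, against 23.7% above and 22.6% below among all genes. These shares and the median of the 19 genes do not stand for the family, because 7 of the 19 had fewer than 3 wild-type arrays at 100. Of those 7, 3 had none, and all 7 could enter the test only with tumor signals. They were Ccl4 and every gene called higher except Cxcl12.

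Without wild-type replicate 3 the number called higher was 4, and over the 6 fits without 1 sample it ranged from 4 to 8. Ccl8, Ccl6, Ccl12 and Cxcl12 were called in all 6 of these fits. Scaled to the bacterial hybridisation controls, which moved the median log2 fold change of all genes to -0.98, 3 family genes were called higher (Ccl12, Ccl6 and Ccl8) and 7 lower, with 416 genes higher and 7544 lower over the whole array against 1686 and 1468 in the scaling used here. Under that scaling the log2 fold change was 0.67 for Cxcl12, 0.50 for Ackr4, 0.50 for Ccl9 and 0.05 for Cxcr3 (limma adjusted p = 0.101, 0.202, 0.213 and 0.904), so these 4 calls were lost.

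**Figure D1:**
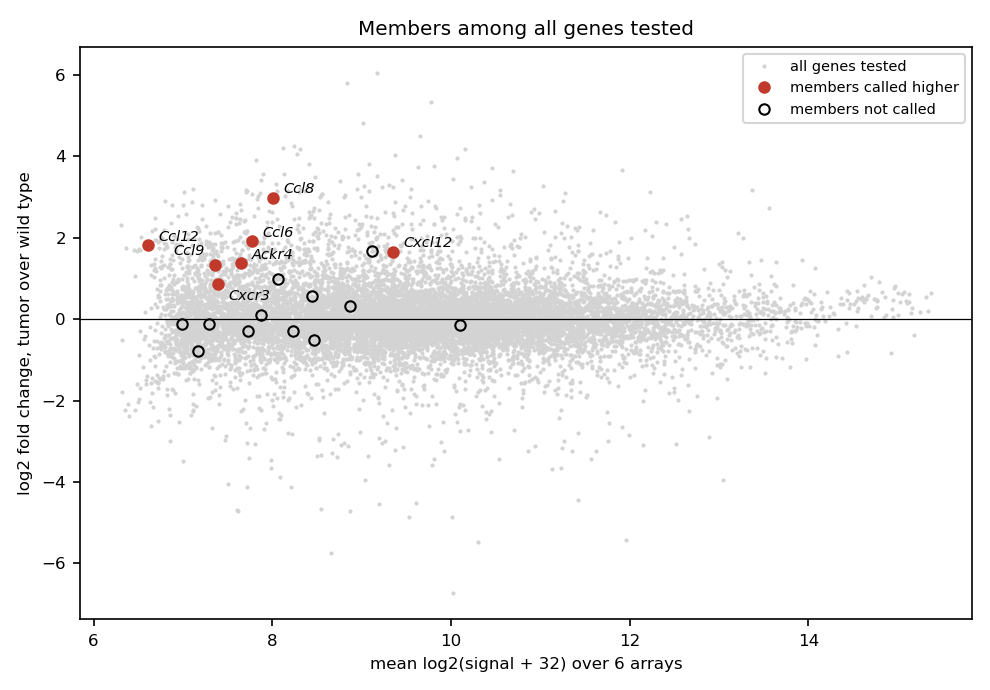
Log2 fold change, tumor over wild type, against mean log2(signal + 32) over 6 arrays for the 11611 genes tested (grey), with the 7 family genes called higher in red and the 12 not called as open circles. The 7 genes lie between 0.88 (Cxcr3) and 2.99 (Ccl8) on the vertical axis, within the range of the other genes.

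Inflammatory CC ligands attract monocytes, macrophages, eosinophils and activated lymphocytes to inflamed tissue. Of 12 such genes on the array, 5 passed the signal filter, 4 of these were called higher in tumors (14.5% of all genes tested were) and 7 were not tested. The 4 had at most 1 wild-type array at a signal of 100, so they entered the test through the tumors and their count does not stand for the group. Ccl8 (monocyte chemoattractant protein 2, a ligand of Ccr8 in mice) read 1032, 381 and 832 in the tumors and 87.6, 38.2 and 58.8 in the wild-type samples. The lowest tumor was thus several times brighter than the highest wild-type sample, whose signals all lay under 100. Its log2 fold change was 2.99 (SE 0.37, limma adjusted p = 0.00234, n = 3 per group), and with the wild-type arrays set to 100 the fold was at least 6.89. Ccl12 (monocyte chemoattractant protein 5, a ligand of Ccr2) had signals of 191, 158 and 114 in tumors and 36.6, 5.8 and 22.7 in wild-type samples. All 3 tumors were above the signal minimum and all 3 wild-type samples below it, so the fold was at least 1.51; the fitted log2 fold change was 1.82 (SE 0.26, limma adjusted p = 0.00385).

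Ccl6 and Ccl9, which encode ligands of Ccr1 made by myeloid cells in mice, were also higher in every tumor. Ccl6 read 486, 251 and 498 in tumors and 59.8, 76.5 and 110.1 in wild-type samples (log2 fold change 1.93, SE 0.29, limma adjusted p = 0.00445). Ccl9 read 271, 130.0 and 327 in tumors and 103.9, 54.1 and 64.5 in wild-type samples (log2 fold change 1.32, SE 0.33, limma adjusted p = 0.024). In all of Ccl8, Ccl6 and Ccl9, tumor replicate 2 had the lowest tumor signal. The Ccl9 call was lost in 4 of the 6 fits without 1 sample (tumor replicates 1 and 3, wild-type replicates 2 and 3), with limma adjusted p from 0.00764 to 0.0766, and its other probe set overlapped between the groups (204, 71.5 and 260.2 in tumors and 39.7, 77.5 and 100.7 in wild-type samples). The second Ccl6 probe set also had the tumors above (131, 73.5 and 235 in tumors and 31.0, 32.6 and 3.5 in wild-type samples).

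Ccl4, which encodes macrophage inflammatory protein 1 beta, was the tested gene of this group that did not pass. It read 72.6, 112 and 86.9 in tumors and 118, 44.5 and 170.2 in wild-type samples (log2 fold change -0.13, SE 0.35, limma adjusted p = 0.816). The other 7 genes (Ccl1, Ccl2, Ccl3, Ccl5, Ccl7, Ccl11 and Ccl24) were not tested, and Ccl1, Ccl3, Ccl7 and Ccl24 stayed below 100 on every array. Ccl2, the best known attractant of monocytes, read 74.5, 93.5 and 133 in tumors and 81.1, 71.4 and 66.8 in wild-type samples. Its groups overlapped, as did those of the remaining 6. Ccl5 reached 100 in tumor replicate 1 alone (131) and Ccl11, the eosinophil attractant eotaxin, in tumor replicate 3 alone (134).

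The 4 genes that rose lie among 11 CC ligand genes on chromosome 11, which stand in 2 runs with 25 other protein-coding genes between them, in the order of the RefSeq annotation of GRCm38.p6. In the first run the order was Ccl2, Ccl7, Ccl11, Ccl12, Ccl8 and Ccl1, and Ccl12 and Ccl8, which are next to each other, were higher while the other 4 were too dim to test. In the second run the order was Ccl5, Ccl9, Ccl6, Ccl3 and Ccl4, and the adjacent Ccl9 and Ccl6 were higher. On both sides of each pair lay genes that were not called or not tested.

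**Figure D2:**
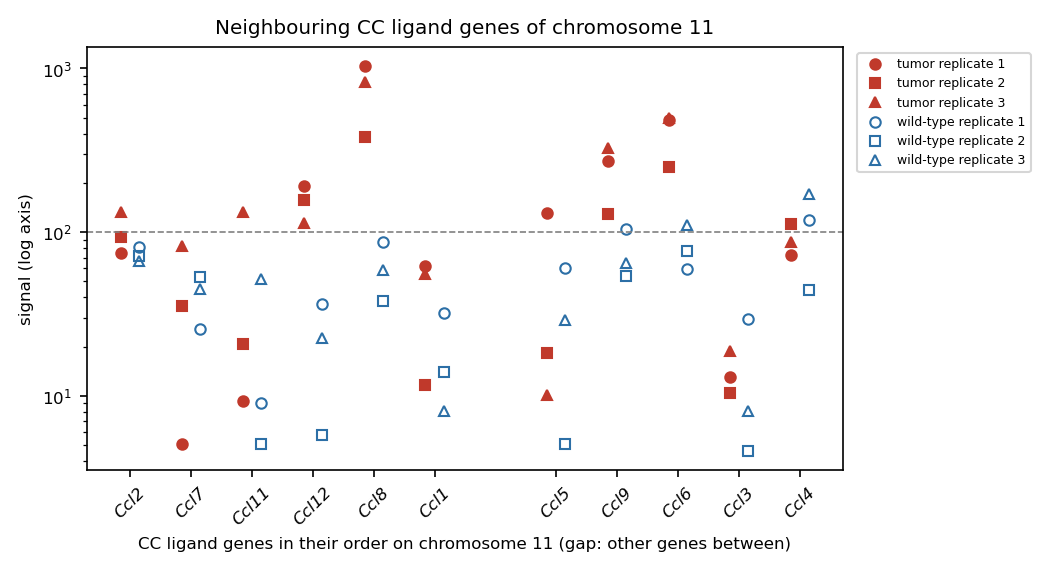
Signals (log axis) of the 11 CC ligand genes of chromosome 11 in their order along it, tumors as filled red and wild-type samples as open blue symbols, with a dashed line at the signal minimum of 100. Tumor signals clear the line and all wild-type signals in the 2 adjacent pairs Ccl12 with Ccl8 and Ccl9 with Ccl6, while the neighbours overlap between the groups.

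Because both genes of each adjacent pair were called higher, the sequence around their transcription starts is shown. It stands beside that of Cxcl12, which was also higher but lies on another chromosome. Each runs from 250 bases before the start to 50 after it (RefSeq, build GRCm38.p6), 5' to 3' on the gene's strand. Capitals mark matches, on either strand, of 6 motifs: the TATA box TATAAA, the GC box GGGCGG, the GC-rich Smad1/5 element GGCGCC, the PU.1 core GAGGAA, an interferon element (GAAA, any 2 bases, GAAA) and an NF-kB element (GGG, any 2 bases, TTTCC). The windows are chr11:82101595-82101894 (plus strand) for Ccl12, chr11:82114935-82115234 (plus strand) for Ccl8, chr11:83578587-83578886 (minus strand) for Ccl9, chr11:83593038-83593337 (minus strand) for Ccl6 and chr6:117168285-117168584 (plus strand) for Cxcl12.
Ccl12: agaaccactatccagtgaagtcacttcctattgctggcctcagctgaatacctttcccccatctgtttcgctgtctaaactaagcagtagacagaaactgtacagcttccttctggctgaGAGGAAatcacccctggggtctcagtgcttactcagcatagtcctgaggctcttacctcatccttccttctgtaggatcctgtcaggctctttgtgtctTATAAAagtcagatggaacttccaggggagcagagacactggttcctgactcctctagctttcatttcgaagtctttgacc
Ccl8: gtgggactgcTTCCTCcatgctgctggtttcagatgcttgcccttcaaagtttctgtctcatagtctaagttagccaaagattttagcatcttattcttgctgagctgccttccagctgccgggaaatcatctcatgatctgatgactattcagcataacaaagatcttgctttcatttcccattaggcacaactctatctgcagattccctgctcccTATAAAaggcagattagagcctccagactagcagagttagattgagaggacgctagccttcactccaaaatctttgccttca
Ccl9: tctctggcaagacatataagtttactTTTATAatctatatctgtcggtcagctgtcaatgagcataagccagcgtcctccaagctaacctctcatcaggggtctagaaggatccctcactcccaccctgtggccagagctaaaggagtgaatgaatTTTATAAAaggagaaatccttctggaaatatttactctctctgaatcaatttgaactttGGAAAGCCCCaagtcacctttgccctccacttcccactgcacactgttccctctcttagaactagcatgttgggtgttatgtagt
Ccl6: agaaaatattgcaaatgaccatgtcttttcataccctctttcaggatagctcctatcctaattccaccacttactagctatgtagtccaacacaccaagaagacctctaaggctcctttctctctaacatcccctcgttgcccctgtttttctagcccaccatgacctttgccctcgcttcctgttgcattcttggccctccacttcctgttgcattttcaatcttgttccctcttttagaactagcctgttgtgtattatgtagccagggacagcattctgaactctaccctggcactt
Cxcl12: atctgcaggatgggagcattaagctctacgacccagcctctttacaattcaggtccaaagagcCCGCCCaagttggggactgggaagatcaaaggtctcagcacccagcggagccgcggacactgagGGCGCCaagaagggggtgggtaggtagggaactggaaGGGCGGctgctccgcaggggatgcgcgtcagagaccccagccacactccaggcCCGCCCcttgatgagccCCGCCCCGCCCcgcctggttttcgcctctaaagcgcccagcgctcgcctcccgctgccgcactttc

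Ccl12 and Ccl8 both had TATAAA near the start, with its first base at -31 in Ccl12 and at -32 in Ccl8 (the base before the start is -1), and each had 1 GAGGAA match farther upstream. Ccl9 had 3 TATAAA matches, 2 of which overlap on opposite strands around -94 to -87, and an NF-kB element match from -35 to -26. Ccl6 had 0 matches of the 6 motifs in its window. Cxcl12 had 5 GGGCGG matches, 2 of them overlapping by 1 base, and 1 GGCGCC match from -123 to -118. A promoter window was given for 37 of the 50 family genes, 41 windows in all. TATAAA was in 29.3% of the family windows and in 13.6% of all 32851 windows, GGGCGG in 22% and 35.7%, GGCGCC in 7.32% and 11.9%, GAGGAA in 34.1% and 28.3%, the interferon element in 4.88% and 3.44%, and the NF-kB element in 14.6% and 1.63%. The 6 family genes with the NF-kB element were Ccl9, Ccl20, Ccr3, Cxcl1, Cxcl2 and Cxcl3, of which only Ccl9 was called in the tumors, and 4 were too dim to test. A match describes letters in a window and shows no binding.

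Cxcl12, the stromal ligand of Cxcr4 and Ackr3 that holds stem cells and lymphocytes in their niches, was the CXC ligand gene called higher in tumors. It read 1742, 942 and 872 in tumors and 285, 262 and 499 in wild-type samples, so each tumor exceeded each wild-type sample. The log2 fold change was 1.66 (SE 0.33, limma adjusted p = 0.0119), and the call held in all 6 fits without 1 sample, with limma adjusted p from 0.0148 to 0.0496. A second Cxcl12 probe set also had all tumors above (451, 256 and 308 in tumors and 191, 40.9 and 157 in wild-type samples), with limma adjusted p = 0.0626 when every probe set was tested. Its other probe set stayed below 100 on all arrays.

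Cxcl14, a chemokine gene of epithelia and stroma, differed between the tumors. It read 1691, 1809 and 279 in tumors and 191, 322 and 350.0 in wild-type samples, so tumor replicates 1 and 2 were far above the wild-type range and replicate 3 was inside it. The log2 fold change of 1.68 did not pass (SE 0.66, limma adjusted p = 0.104), while without tumor replicate 3 it was 2.52 (limma adjusted p = 0.00225). The other Cxcl14 probe set gave a different order: 1706, 1849 and 361 in tumors and 115, 163 and 93.8 in wild-type samples, with no overlap (log2 fold change 2.83, SE 0.58, limma adjusted p = 0.0138 among all passing probe sets).

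Cxcl16, which encodes a chemokine anchored in the membrane that binds Cxcr6, also differed between the tumors. It read 608, 449.8 and 142 in tumors and 167, 162 and 143 in wild-type samples, and tumor replicate 3 was the lowest of all 6. The log2 fold change was 1.00 (SE 0.45, limma adjusted p = 0.141), and 1.56 without tumor replicate 3 (limma adjusted p = 0.00319). In its second probe set the 3 tumors lay above (428, 278 and 171 in tumors and 61.2, 95.5 and 70.3 in wild-type samples, limma adjusted p = 0.0128 among all passing probe sets). With the probe sets of a gene averaged, Cxcl14 and Cxcl16 were both called higher (limma adjusted p = 0.0338 and 0.0406).

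Cx3cl1, the membrane-bound ligand known as fractalkine, read 614, 633 and 305 in tumors and 364, 475 and 336 in wild-type samples. The groups overlapped (log2 fold change 0.32, SE 0.29, limma adjusted p = 0.445; -0.18 in a second probe set), again with tumor replicate 3 the lowest of the 6, and the gene passed without that sample (limma adjusted p = 0.0485). Cxcl13, the ligand that gathers B cells in follicles of lymphoid tissue, read 371, 139.6 and 177 in tumors and 163, 200.1 and 229 in wild-type samples (log2 fold change 0.10, SE 0.32, limma adjusted p = 0.845). Cxcl17 stayed below 100 on every array.

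**Figure D3:**
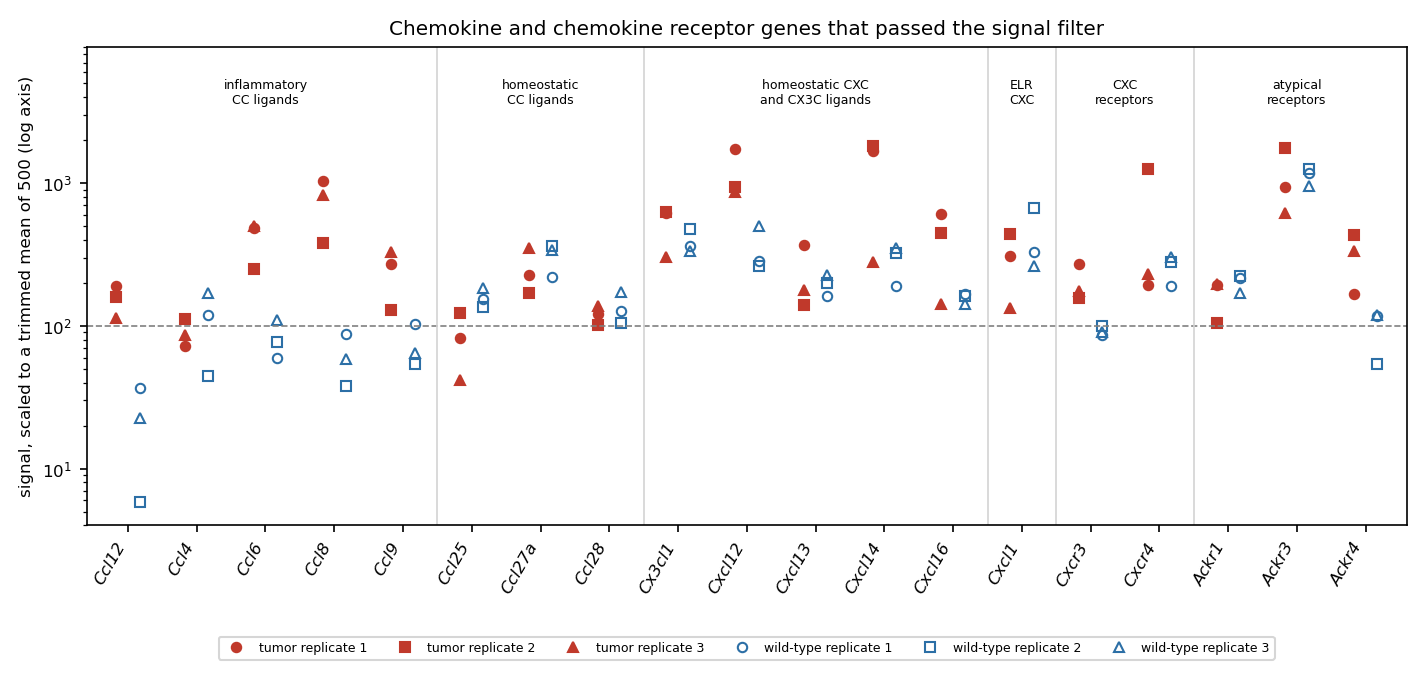
Signals (log axis) of the 19 tested family genes in each sample, tumors as filled red and wild-type samples as open blue symbols, grouped by role, with a dashed line at the signal minimum of 100. The groups separate in Ccl12, Ccl6, Ccl8, Ccl9, Cxcl12, Cxcr3 and Ackr4 (tumors above) and in Ccl25 (tumors below), and tumor replicate 3 lies apart from the other tumors in Cxcl14 and Cxcl16.

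Homeostatic CC ligands direct lymphocytes through thymus, gut, skin and lymphoid organs. Of 6 on the array 3 were tested and 0 were called in either direction (1 of them, Ccl25, lower at an unadjusted p under 0.05). Ccl25, the thymic and intestinal ligand of Ccr9, read 82.1, 123 and 41.5 in tumors and 154, 135 and 184 in wild-type samples. Each tumor was below each wild-type sample, yet the log2 fold change of -0.79 did not pass (SE 0.28, limma adjusted p = 0.0749); it passed without tumor replicate 2 (limma adjusted p = 0.0314). Its other probe set overlapped between the groups. Ccl27a, a skin ligand of Ccr10 measured by a probe set whose name marks probes shared with other transcripts, and Ccl28, a mucosal ligand of the same receptor, had log2 fold changes of -0.30 and -0.12 with limma adjusted p of 0.464 and 0.678. Ccl17, Ccl20 and Ccl22 were not tested, and Ccl20 and Ccl22 stayed below 100 on all arrays.

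CXC ligands that carry the ELR motif attract neutrophils through Cxcr2. Of 5 such genes, Cxcl1 alone was tested, and it read 307, 440.4 and 133 in tumors and 328, 671 and 264 in wild-type samples. The ranges overlapped (log2 fold change -0.50, SE 0.46, limma adjusted p = 0.448). Cxcl2, Cxcl3, Cxcl5 and Cxcl15 stayed below 100 on all 6 arrays, as did Cxcr2.

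The interferon-induced ligands of Cxcr3 were near background in all wild-type samples and uneven among the tumors. Cxcl9 read 228, 101.3 and 3.9 in tumors and 6.8, 5.9 and 4.5 in wild-type samples. Cxcl10 read 160.1, 90.7 and 14.6 in tumors and 26.9, 19.5 and 7.1 in wild-type samples. In both, tumor replicates 1 and 2 were above all wild-type samples and tumor replicate 3 was not, and neither gene reached 100 on 3 arrays, so neither was tested. Cxcl11 stayed below 100 throughout.

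Their receptor gene, Cxcr3, which marks activated T cells and natural killer cells, was higher in tumors. It read 269, 157 and 175 in tumors and 86.7, 99.9 and 90.0 in wild-type samples (log2 fold change 0.88, SE 0.20, limma adjusted p = 0.0192) and with the wild-type arrays set to 100 the fold was at least 1.95. All 3 wild-type signals lay just under the minimum, so the gene entered the test through the tumors. The call was lost without wild-type replicate 1 (limma adjusted p = 0.075) and without wild-type replicate 3 (0.0617), with a lowest value of 0.0235 over the 6 fits.

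Cxcr4, the signalling receptor of Cxcl12, was high in 1 tumor. It read 192, 1261 and 230 in tumors and 190.2, 279.7 and 306 in wild-type samples, so tumor replicates 1 and 3 were inside the wild-type range. The log2 fold change was 0.57 (SE 0.63, limma adjusted p = 0.537) and -0.24 without tumor replicate 2. Cxcr6, the receptor of Cxcl16, followed the order of Cxcl9 among tumors, with 244 in replicate 1, 66.1 in replicate 2 and 15.3 in replicate 3, against 58.0, 38.7 and 35.0 in wild-type samples. It reached 100 on 1 array and was not tested. The other Cxcr6 probe set read 108, 86.4 and 8.9 in tumors and 2.3, 2.9 and 9.0 in wild-type samples. There tumor replicates 1 and 2 were above all wild-type samples and replicate 3 was not. Cxcr2 and Cxcr5 stayed below 100 on all arrays.

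None of the 9 CC receptor genes on the array passed the filter, and Ccr3, Ccr4, Ccr7, Ccr8, Ccr9 and Ccr10 stayed below 100 on every array. Ccr2, the receptor of Ccl12 and Ccl2 on monocytes, read 46.1, 149.8 and 77.6 in tumors and 115, 15.8 and 23.6 in wild-type samples by the probe set that stood for it. Of its 3 other probe sets, 1 overlapped between the groups and 2 had every tumor above every wild-type sample. The first of these read 113, 35.8 and 51.2 in tumors and 19.8, 23.2 and 4.1 in wild-type samples, and the other read 122, 66.4 and 80.0 in tumors and 2.7, 8.7 and 36.8 in wild-type samples. Too few of their arrays reached 100 for a test, so the order of the groups in Ccr2 depended on the probe set. Ccr1, the receptor of Ccl6 and Ccl9, read 38.3, 9.7 and 111 in tumors and 28.1, 17.6 and 17.7 in wild-type samples. Ccr6, the receptor of Ccl20, read 129, 84.3 and 47.0 in tumors and 88.5, 55.1 and 100.5 in wild-type samples, with overlap between the groups as in Ccr1.

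Atypical receptors shape chemokine gradients by uptake. Ackr4, which scavenges Ccl19, Ccl21 and Ccl25, read 168, 430.5 and 335 in tumors and 116, 54.4 and 119 in wild-type samples, with each tumor above each wild-type sample. Its log2 fold change was 1.38 (SE 0.36, limma adjusted p = 0.0284). Too few of its wild-type arrays reached 100 for it to enter the test without the tumors. The call held in 1 of the 6 fits without 1 sample, that without tumor replicate 1, and limma adjusted p over the 6 ranged from 0.0124 to 0.0808; with the replicate numbers of the sample titles as a block it was 0.058. A second probe set had the tumors above as well (226, 298 and 261 in tumors and 157, 57.7 and 176 in wild-type samples), with limma adjusted p = 0.0734 among all passing probe sets. Ackr3, the scavenger of Cxcl12, read 939, 1752 and 619.5 in tumors and 1177, 1263 and 962 in wild-type samples. Its tumor values spanned the wild-type range on both sides (log2 fold change -0.15, SE 0.35, limma adjusted p = 0.775). Ackr1, the Duffy receptor of venules and red cells, had a log2 fold change of -0.29 (limma adjusted p = 0.402), and Ackr2, which clears inflammatory CC ligands, reached 100 on 1 array of each group and was not tested.

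**Figure D4:**
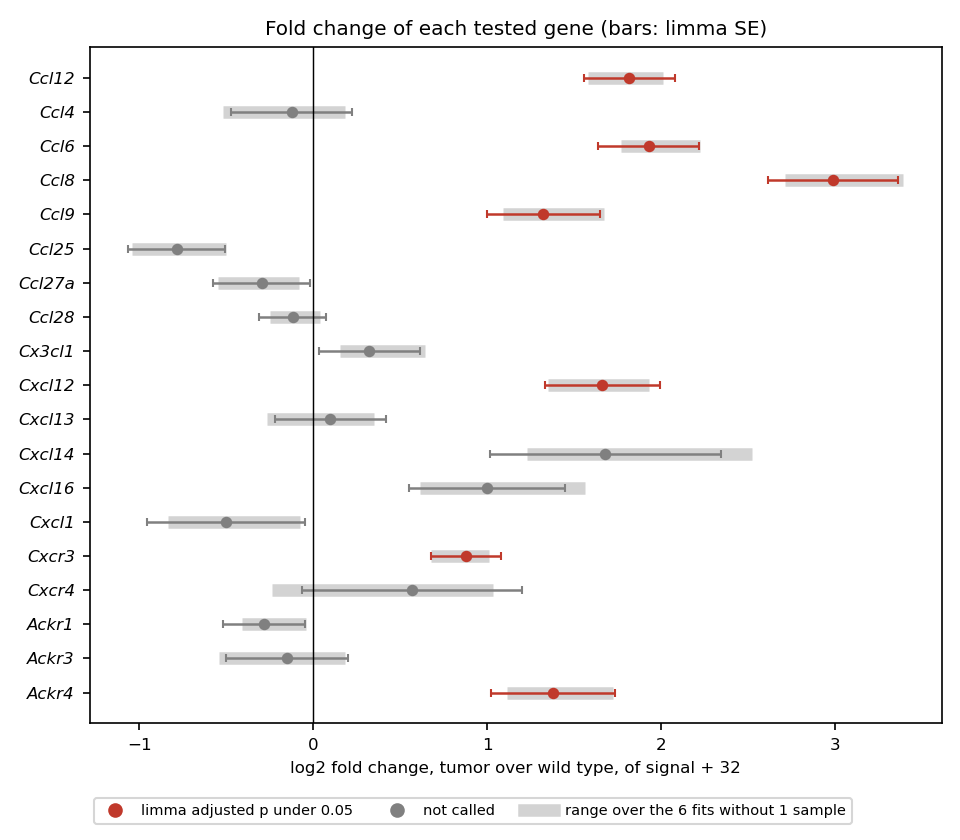
Log2 fold change of signal + 32, tumor over wild type, for the 19 tested family genes (points, with limma standard errors), in red where the limma adjusted p was under 0.05, with grey bars for the range over the 6 fits without 1 sample. The bars of the 7 red genes stay above 0, that of Cxcr4 runs from -0.24 to 1.03, and that of Cxcl14 from 1.23 to 2.52.

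Of the 31 genes that were not tested, 20 were below 100 on all 6 arrays, 7 reached 100 on 1 array and 4 on 2 arrays. Their signals ranged from 1.9 to 244, and their groups overlapped in 29 of 31. The exceptions were Cxcl5 and Ccr8, with all tumors above at signals no higher than 68.0 and 13.1. At the filter, Ccl12 and 3 more tested genes reached 100 on exactly 3 arrays.

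Chemokine system genes outside these symbol patterns changed in both directions: of 6 tested, 3 were higher, 1 was lower and 2 did not pass, with a median log2 fold change of 0.62 against 0.00 for all genes tested. Rarres2, which encodes the attractant chemerin, read 23049, 32184 and 3805 in tumors and 1385, 1876 and 1577 in wild-type samples (log2 fold change 3.12, limma adjusted p = 0.0202). Tumor replicate 3 was again the lowest tumor, though above all wild-type samples. Pf4, the platelet chemokine gene also known as Cxcl4 and expressed by some macrophages, had a log2 fold change of 1.40 (limma adjusted p = 0.00731). Cd74, a receptor for macrophage migration inhibitory factor and the invariant chain of class II presentation, rose by 2.52 (limma adjusted p = 0.0308). Of 17 tested genes of signalling inside the cell below chemokine receptors, 2 were higher and 2 lower, with a median of 0.34: the receptor kinase gene Grk5 rose by 2.07, the arrestin gene Arrb1 rose by 1.23 and the kinase gene Pik3cg fell by 1.93 on the log2 scale. Of 5 tested proteases that cut chemokines, 2 were higher (Mmp2 by 2.44 and Dpp4 by 1.02) and 0 lower, with a median of 0.64.

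Most genes of the cytokine and interferon lists did not pass. Of 10 tested cytokine and NF-kB genes, 1 was higher (Icam1, an adhesion molecule of activated endothelium, log2 fold change 1.29) and 0 were lower, with a median log2 fold change of 0.16, and the cytokine genes Tnf, Il1a, Il6 and Csf2 stayed below 100 on all arrays. Of 9 tested genes of the interferon gamma pathway, Psmb8 rose by 0.68 and Socs1 fell by 0.97 on the log2 scale, with a median of 0.07, and Ifng stayed below 100 on all arrays. The list's summed signal was 5590, 4877 and 3702 in tumors and 4168, 4217 and 4772 in wild-type samples.

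Markers of several cell types that make chemokines or carry their receptors also differed between the groups, and their part in these results was not tested. All 6 pan-leukocyte markers were higher in tumors, with summed signals of 4198, 2251 and 2356 in tumors and 595, 562 and 698 in wild-type samples. All 10 tested macrophage markers were higher, with sums over 12 markers of 15708, 13016 and 13169 in tumors and 2274, 2475 and 2643 in wild-type samples; Itgam stayed below 100 on all arrays. Tumor replicate 2 had the lowest tumor sum in both of these lists, but replicate 3 was close to it. Replicate 3 was lowest in single markers such as Ptprc, Cd52 and Lyz2, and replicate 2 in others such as Laptm5, Itgb2 and Csf1r. Among the called CC ligands, Ccl8, Ccl6 and Ccl9 were lowest in tumor replicate 2 and Ccl12 in replicate 3 (114). All 7 fibroblast markers rose, with sums of 44566, 48842 and 23168 in tumors and 8186, 8473 and 9107 in wild-type samples, as did all 6 smooth muscle and pericyte markers (25742, 27888 and 15168 in tumors and 3988, 5016 and 5258 in wild-type samples). In both of these lists tumor replicate 3 had the lowest tumor sum, and it was also the lowest tumor in Cxcl14 and Cxcl16. For Cxcl12 this depended on the probe set. The chosen one was lowest in replicate 3 (872 against 942 in replicate 2), and the second in replicate 2 (256 against 308 in replicate 3). Both Cxcl12 probe sets were highest in tumor replicate 1, whereas the sums of both lists were highest in replicate 2. Endothelial markers rose in 5 of 8 cases, with sums of 4885, 11059 and 6218 in tumors and 1340, 1507 and 1602 in wild-type samples. Tumor replicate 2 had the highest sum. Cxcr4, Ackr3 and Ackr4 were highest among tumors in that replicate. Ackr1 was lowest there, at 104.9 against 193.4 and 196.3 in tumor replicates 1 and 3. Of these genes only Ackr4 was called between the groups. What such shared ranks among 3 tumors come from was not tested.

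Lymphocyte and granulocyte markers were mostly dim. T cell markers summed to 610, 358 and 366 in tumors and 502, 245 and 371 in wild-type samples; 1 of 9 was tested and not called, and Cd3e, Cd4, Cd8b1, Cd2 and Cd6 stayed below 100 on all arrays, beside the higher Cxcr3. Of 2 tested B and plasma cell markers, Jchain rose by 3.15 on the log2 scale, and the sums were 4746, 447 and 1059 in tumors and 504, 295 and 250 in wild-type samples. Neutrophil markers summed to 406, 492 and 2309 in tumors and 405, 347 and 395 in wild-type samples, with 0 of 1 tested called, and tumor replicate 3, with the highest sum, had the lowest Cxcl1. Mast cell and eosinophil markers summed to 1494, 240 and 309 in tumors and 187, 84.0 and 208 in wild-type samples, and none was tested. Of 3 tested dendritic cell markers 2 rose, Batf3 by 1.68 and Zbtb46 by 1.45, and Itgax was not called. Flt3, Xcr1 and Cd209a were not tested. Flt3 read 67.7, 29.5 and 75.8 in tumors and 214, 153 and 48.8 in wild-type samples. The 1 tested natural killer cell marker, Prf1, fell by 1.72. Of 2 tested platelet markers 1 rose (Pf4), and the 1 tested erythroid marker was not called. Of 4 lymphatic endothelial markers 1 rose (Prox1, by 1.48) and 3 were not called, with a median log2 fold change of -0.34. Their summed signal was lower in each tumor (2068, 1703 and 1784) than in each wild-type sample (2272, 3238 and 2537). Pdpn gave the largest part of each sum (1322, 731 and 1151 in tumors and 1685, 2207 and 1229 in wild-type samples). No marker of this list was called lower, and the groups overlapped in each of the 3 not called, so the sum does not stand for the list. Both tested theca cell markers fell, where Cyp17a1 fell by 4.85 and Cyp11a1 fell by 4.45.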

How the data were processed

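Total RNA of 3 tumors and 3 wild-type pools was hybridised to 1 Affymetrix array each. Per the submitters' processing notes, the deposited intensities (linear signals, 1 per probe set and array) came from GCOS for tumor arrays and MAS5 for wild-type arrays, without versions. As deposited, each array's mean with 2% trimmed at each end was 500, and arrays were scaled to exactly that. Neither scanner images nor detection calls entered. GEO's annotation of the platform named the genes: among 45101 probe sets 64 were controls, 34945 carried 1 symbol, 932 several and 9160 none, and probe sets with several symbols named no gene.

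Probe sets that reached a signal of 100 on 3 or more of the 6 arrays were kept, and the brightest stood for its gene, which was also the one the family's rule chose for all 19 tested members. Groups were compared on log2(signal + 32) by lmFit and eBayes of limma 3.58.1 (R 4.3.3; 2-sided) in 1 fit of 11611 genes, with Benjamini-Hochberg adjustment over all of them and a threshold of 0.05. Log2 fold changes are tumor over wild type and understate the change of dim genes. A fold given as "at least" is the geometric mean of the brighter group over 100, where the dimmer group had no array at 100. Nothing in the labels ties a tumor to a wild-type pool, so the fit had no block; deviations of samples with the same number correlated at -0.0449, 0.0276 and 0.09. The fit was tested on simulated data. Lists, motifs and members were chosen with earlier results of these data known. Members were named where they passed the filter, and others by range and count; of further lists the counts, the median and up to 3 called genes are given, with some uncalled values chosen after they were seen. RefSeq tables of GRCm38.p6 gave promoter windows and gene order. Tables and figures used Python 3.11.15, pandas 2.3.3 and matplotlib 3.10.9. Alternatives changed the pseudocount (1 and 100), filter (none and 200), scaling, probe set rule, variance prior, samples and block. Replicate p-values measure the spread between these samples only; wild-type pools hide the variation between single females.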

Additional observations from a re-analysis of the deposited data

How the results depend on the processing

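The count of 7 family genes higher in tumors was the same with pseudocounts of 1 and 100, quantile normalization, scaling to the median, a trended robust prior and testing of every probe set, and it was 5 with no filter and 9 with probe sets averaged. It was 3 with a signal minimum of 200, which left 11 family genes to test, and 3 with scaling to the hybridisation controls, where 7 were lower and the array as a whole had 416 genes higher and 7544 lower. Without 1 sample it ranged from 4 to 8, with 4 without wild-type replicate 3; the count of lower genes ranged from 0 to 1, the 1 being Ccl25 without tumor replicate 2. Over all genes these fits gave 866 to 1704 higher and 662 to 1409 lower; without wild-type replicate 1 the counts were 866 and 662, and without wild-type replicate 3 they were 1092 and 880. Under the control scaling Cxcr3 had a log2 fold change of 0.05 (limma adjusted p = 0.904). With the number of the sample titles as a replicate block, 6 family genes were higher (Ackr4 was lost), 0 were lower, and 1464 and 1138 of all genes were called; it changed no other family call, and the numbers pair nothing by the labels. The cause of these shifts was not tested. Many family genes lie near the signal minimum, and for 31 of 50 no difference could be tested.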
